A study of Homo sapiens with 6 samples.

Results

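The S100 calcium-binding protein genes were examined in crizotinib-resistant and control H3122 cells. The members were the rows of the deposited table whose gene name is S100A2, S100A4, S100A6, S100A8, S100A9, S100A10, S100A11, S100A14, S100A16 or S100P, which gave 10 of 51537 genes, each on 1 row. H3122 is a human lung adenocarcinoma line known for an EML4-ALK fusion, and crizotinib inhibits the ALK and MET kinases. The resistant group was 3 libraries of H3122 cells selected by raising crizotinib stepwise between 0.1 and 10 µM, and the control group was 3 libraries of H3122 cells labelled as controls. Both groups come from 1 cell line, with no other genotype or agent given. Nothing in the labels ties the libraries to different cultures or derivatives, so the spread behind each p-value may be technical. Drug was kept in the medium during selection, and the labels do not say whether it was present when RNA was taken.

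S100 proteins are small proteins with a pair of EF-hand calcium-binding loops, and most act as dimers. Calcium opens a surface on the dimer through which it binds target proteins such as annexins, myosins or ezrin. Some members, above all the S100A8 and S100A9 pair that forms calprotectin, are also released from cells and act on receptors such as TLR4 and RAGE. Several members are known for their high levels in squamous epithelium, in myeloid cells and in carcinomas.

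Of the 10 members, all protein-coding, 9 lie on chromosome 1 and S100P lies on chromosome 4, and gene positions below are those of GENCODE 29 (GRCh38). The 250 bases before the start site of the members with the largest rises (S100A8, S100A9) and the largest falls (S100A4, S100P) are shown because these 4, and no other member, have the letters TATAAA close to a start. This was seen after their changes were known. Sequences are from RefSeq (GRCh38.p14), read 5′ to 3′ on the strand of the gene, with the TATAAA in capitals. The S100A8 window is chr1:153391074-153391323 (minus strand, before the second of 3 RefSeq starts), that of S100A9 is chr1:153357604-153357853 (plus strand), that of S100A4 is chr1:153545807-153546056 (minus strand) and that of S100P is chr4:6693628-6693877 (plus strand).
S100A8: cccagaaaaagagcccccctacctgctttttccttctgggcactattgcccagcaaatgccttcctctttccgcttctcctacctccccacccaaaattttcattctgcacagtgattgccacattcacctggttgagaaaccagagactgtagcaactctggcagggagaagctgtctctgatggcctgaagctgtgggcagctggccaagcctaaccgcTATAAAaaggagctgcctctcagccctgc
S100A9: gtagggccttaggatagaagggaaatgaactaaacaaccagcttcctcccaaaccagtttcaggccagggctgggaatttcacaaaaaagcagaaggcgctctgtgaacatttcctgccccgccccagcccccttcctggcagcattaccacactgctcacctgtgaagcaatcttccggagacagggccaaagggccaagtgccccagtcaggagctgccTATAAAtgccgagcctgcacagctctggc
S100A4: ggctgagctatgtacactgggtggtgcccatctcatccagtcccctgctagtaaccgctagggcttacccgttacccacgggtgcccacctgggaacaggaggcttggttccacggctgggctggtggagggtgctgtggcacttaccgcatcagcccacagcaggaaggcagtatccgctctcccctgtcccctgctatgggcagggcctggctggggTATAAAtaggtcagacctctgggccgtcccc
S100P: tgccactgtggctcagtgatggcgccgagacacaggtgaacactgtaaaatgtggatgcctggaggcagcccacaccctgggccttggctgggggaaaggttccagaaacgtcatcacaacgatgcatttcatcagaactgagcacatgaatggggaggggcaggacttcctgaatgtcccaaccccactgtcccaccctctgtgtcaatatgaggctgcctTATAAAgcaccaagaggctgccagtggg
The first of the capitals lay 29 bases before the start in S100A8 and S100A9, 31 in S100A4 and 28 in S100P. A TATAAA on the gene's strand within the last 40 bases was found in 4 of the 14 windows of the members (some have more than 1 start), each from a different member, against 2.44% of all 35116 RefSeq windows of that length. On either strand, TGANTCA (AP-1) was found before 1 start of S100A2, TTGCNNAA (C/EBP) in S100A11 and the NF-kB motif in S100A14, and TTCNNNGAA (STAT) in none of these 14 windows. Over all windows the shares were 6.57% for AP-1, 9.05% for C/EBP, 5.21% for NF-kB and 6.57% for STAT. A match only says that the letters are there.

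Levels are given as TPM (a share of each library's transcripts, scaled for gene length). TPM lets genes be compared with each other as far as the gene lengths used hold. Reads rebuilt from TPM and GENCODE 29 exon lengths gave an estimated 29856927 to 36695580 reads per library. For all 10 members the rebuilt reads were whole numbers within 0.01 read in all 6 libraries. They ran between 60 and 105 reads for S100A2, between 129 and 323 for S100A4 and between 179 and 1538 for S100A8, and were at least 4822 for each other member. The libraries were close within a group (r of log2 values across genes, which are not independent replicates, was 0.986 to 0.989 within and 0.957 to 0.960 between groups). The cells had the keratins of simple epithelium, with KRT8, KRT18 and KRT19 among 9 markers that summed to 17791 to 19088 TPM in resistant and 17098 to 17652 TPM in control libraries. The lung lineage markers NKX2-1 (0.437 to 0.751 TPM in resistant, 0 to 0.187 TPM in control libraries), NAPSA and SFTPB in that list were at most 2.05 TPM in any library.

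**Figure D1:**
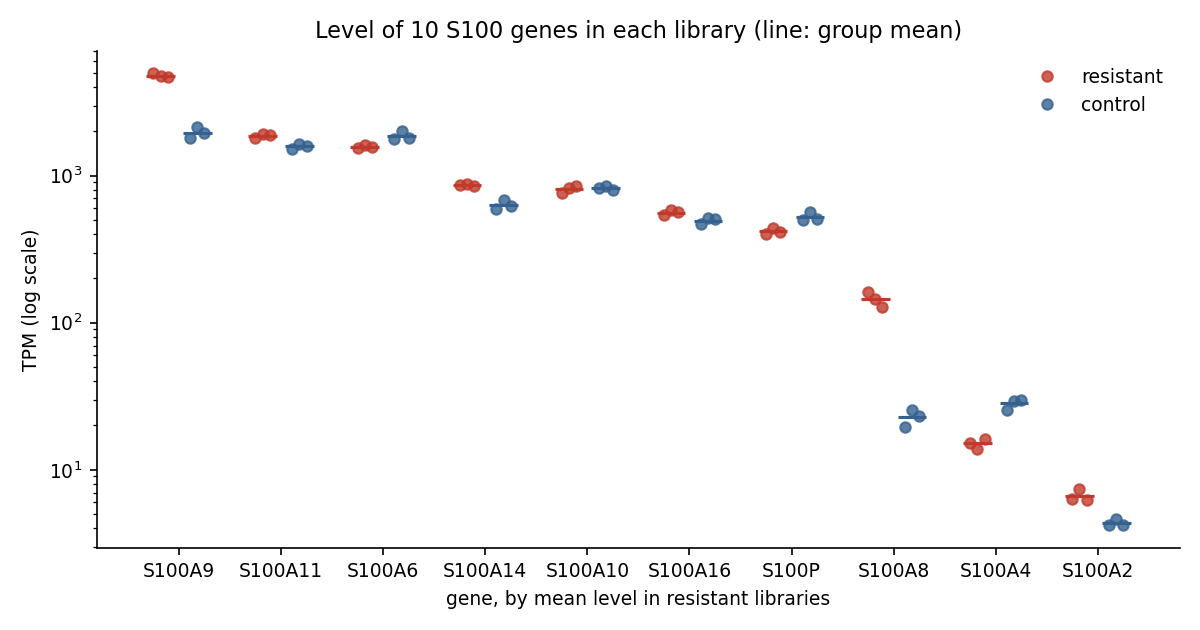
TPM (log axis) of the 10 S100 genes in each library, resistant to the left of control for each gene; points are libraries and lines are group means (n = 3). S100A9 is the most abundant member in both groups, and S100A10 is the only gene whose groups overlap.

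Of the 10 members, 6 rose in resistant cells, 3 fell and 1 did not pass the test (limma on log2(TPM + 1), Benjamini-Hochberg adjusted p below 0.05). Among all 16077 genes tested, 24.0% were called higher, 24.7% lower and 48.6% in either direction, so a called gene is common in this comparison. The median log2 change was 0.21 over the members and -0.00 over all genes tested. The groups did not overlap for 9 of the 10 members, against 57.9% of all genes tested. Only S100A8 and S100A9 changed by at least 2-fold. Their log2 changes were exceeded in size by 0.243% and 3.01% of all genes tested. For S100A11, S100A6 and S100A16 the share was 54.5%, 53.7% and 64.5%.

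S100A8 and S100A9 encode the subunits of calprotectin, a calcium- and zinc-binding complex that is abundant in neutrophils and in inflamed epithelium. S100A8 (ENSG00000143546, chromosome 1, 153390032 to 153391188) was at 163, 145 and 128 TPM in resistant libraries 1 to 3 and at 19.6, 25.6 and 23.4 TPM in control libraries 1 to 3. Every resistant library thus stood well above every control library. S100A8 averaged 145 ± 17.4 TPM in resistant and 22.8 ± 3.04 TPM in control libraries (SD, n = 3 each), a log2 change of 2.62 ± 0.12 (SE; limma adjusted p = 7.23e-06). Of the members it had the largest change, and it stood at rank 845 to 1141 by TPM among all genes in resistant libraries and at rank 5552 to 6262 in control libraries.

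S100A9 (ENSG00000163220, chromosome 1, 153357854 to 153361027) was at 4969.8, 4755 and 4670.4 TPM in resistant libraries and at 1817, 2145 and 1938 TPM in control libraries. It was the most abundant member in both groups, and the groups lay far apart. S100A9 averaged 4798 ± 154 TPM in resistant and 1967 ± 166 TPM in control libraries (log2 change 1.29 ± 0.06, limma adjusted p = 8.05e-06). It ranked 19 by TPM among all genes in each resistant library and between 41 and 49 in control libraries.

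S100A8 gained on S100A9 in resistant cells. The ratio of S100A8 to S100A9 TPM was 0.0327, 0.0304 and 0.0274 in resistant libraries and 0.0108, 0.0119 and 0.0121 in control libraries, given as a description with no test, and the groups did not overlap. By TPM, S100A9 thus exceeded its partner in all 6 libraries. The excess was 33.3 ± 3.01 to 1 in resistant and 86.5 ± 5.47 to 1 in control libraries. Its size depends on the exon lengths used, 577 bases for S100A9 and 1006 bases for S100A8. In rebuilt reads, S100A9 had 26965 against 1538 for S100A8 in resistant library 1. In control library 1, S100A9 had 9529 against 179 for S100A8. Because S100A8 and S100A9 are used as myeloid markers, 12 neutrophil and monocyte markers were read beside them. Of these 10 were under 1 TPM in all 6 libraries, MPO, FCN1 and LYZ were at 0 in all 6, and the list summed to 9.68 to 12.3 TPM in resistant and 7.29 to 7.91 TPM in control libraries. CD14 and CSF1R made up most of that sum. Of the 2 markers that passed the filter on low values, CSF1R rose (log2 0.59, limma adjusted p = 0.0141) and CD14 did not pass the test. In bulk RNA a change in the number of expressing cells and a change in RNA per cell cannot be told apart.

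**Figure D2:**
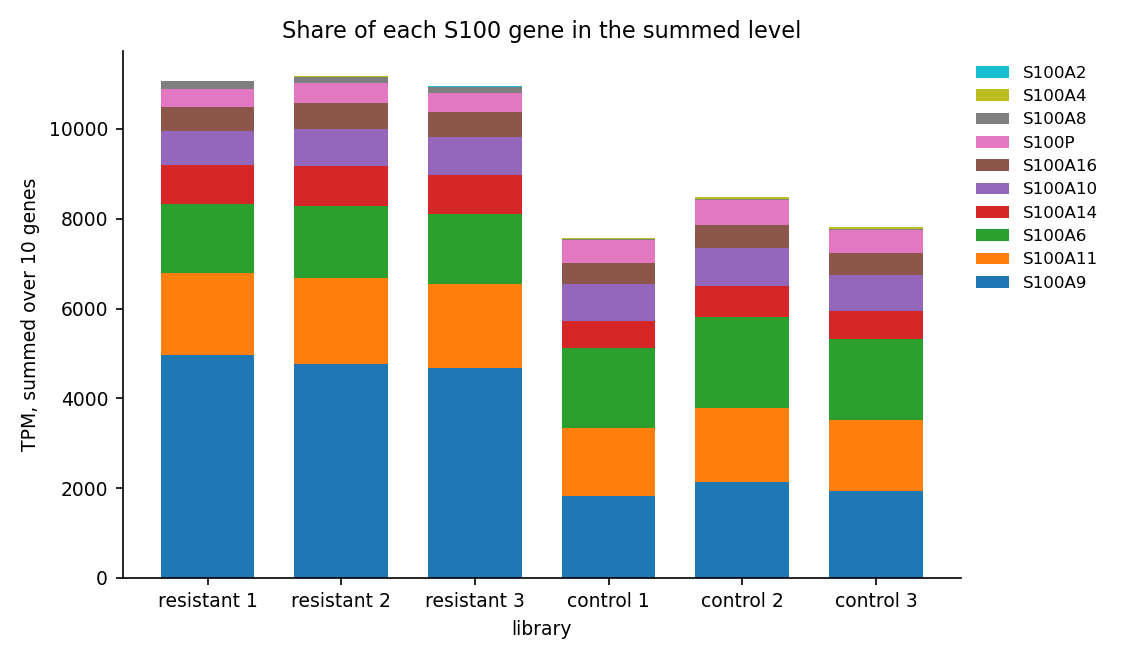
TPM summed over the 10 S100 genes in each library, resistant libraries left of control libraries, with 1 colour per gene. The sums were 10949 to 11183 TPM in resistant and 7569 to 8479 TPM in control libraries, and the S100A9 segment is the one that differs most.

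The 10 members together held 1.11 ± 0.0117% of all TPM in resistant and 0.795 ± 0.0471% in control libraries. S100A9 made up 43.3 ± 1.31% of the sum in resistant and 24.7 ± 0.655% in control libraries. Without S100A8 and S100A9 the other 8 members summed to 6127 ± 170 TPM in resistant and 5963 ± 304 TPM in control libraries, and these sums overlapped between groups.

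The epithelial members S100A14, S100A16 and S100A2 were higher in resistant cells by smaller amounts. S100A14 (ENSG00000189334, chromosome 1, 153614255 to 153616986), a member of epithelial tissues, was at 861, 879 and 852 TPM in resistant and 598, 689 and 621 TPM in control libraries. All resistant libraries lay above all control libraries, and the resistant ones were close to each other. The log2 change was 0.44 ± 0.06 (limma adjusted p = 0.000495).

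S100A16 (ENSG00000188643, chromosome 1, 153606886 to 153613145), a widely expressed member, was at 539, 582 and 566 TPM in resistant and 468, 513 and 505 TPM in control libraries. The groups did not overlap, but the gap between them was narrow. In limma the difference was 0.18 ± 0.05 on the log2 scale (limma adjusted p = 0.0178). The limma call was lost when resistant library 2 was left out (adjusted p = 0.0578), when resistant library 3 was left out (adjusted p = 0.0605) and without limma's trend and robust options (adjusted p = 0.0534).

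S100A2 (ENSG00000196754, chromosome 1, 153561108 to 153567890), which is known to be high in basal and squamous epithelium, was the least abundant member. It was at 6.31, 7.38 and 6.19 TPM in resistant and 4.21, 4.59 and 4.19 TPM in control libraries. The groups did not overlap, although the counts behind them were small. The log2 change was 0.51 ± 0.09 on the log2(TPM + 1) scale (limma adjusted p = 0.00314), which understates the change of a gene at this level. With a pseudocount of 0.1 it was 0.60. Of 8 squamous markers, KRT5, KRT14, DSG3, KRT1 and DSC3 were under 1 TPM in all 6 libraries, while KRT13 rose (log2 2.34, limma adjusted p = 6.51e-06). KRT10 rose by less (log2 0.29, limma adjusted p = 0.0060), and TP63 did not pass the test (limma adjusted p = 0.219). That list summed to 59.5 to 66.5 TPM in resistant and 41.2 to 43.2 TPM in control libraries, with KRT10 its main part, and its part in the S100A2 result was not tested.

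S100A11 and S100A10, members that bind annexins, were both abundant. S100A11 (ENSG00000163191, chromosome 1, 152032506 to 152047907), a partner of annexin A1, was at 1816, 1919.5 and 1887 TPM in resistant and 1528, 1647 and 1581 TPM in control libraries. All resistant libraries were higher than all control libraries. S100A11 rose by 0.24 ± 0.04 on the log2 scale (limma adjusted p = 0.00238). Its pseudogenes S100A11P1 and S100A11P2 were listed at 0 in all 6 libraries.

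S100A10 (ENSG00000197747, chromosome 1, 151982915 to 151994390), also called p11, is the member whose EF hands no longer bind calcium and which joins annexin A2 in a stable complex at the plasma membrane. It was at 767, 826 and 852 TPM in resistant and 823, 845 and 798 TPM in control libraries. The groups overlapped, and the order of the libraries mixed them. Its log2 change was -0.01 ± 0.05 (limma adjusted p = 0.845), with a 95% interval of -0.13 to 0.10. As a ratio of resistant to control, the interval runs between 0.916 and 1.07. The sign of the log2 change turned positive without resistant library 1 (0.03) and without control library 2 (0.01).

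**Figure D3:**
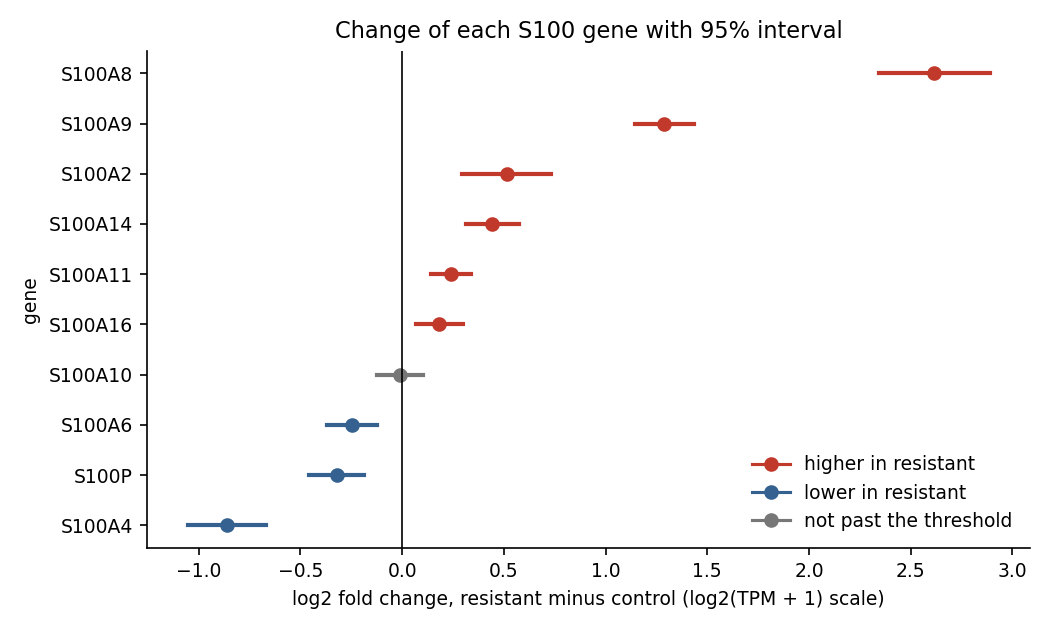
Log2 fold change (resistant minus control, log2(TPM + 1) scale) of each S100 gene on the horizontal axis, with its 95% interval from limma; colours give the direction of called genes. S100A8 (2.62) and S100A9 (1.29) stand apart on the right, S100A4 (-0.86) on the left, and the interval of S100A10 spans 0.

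The members that fell were S100A4, S100P and S100A6. S100A4 (ENSG00000196154, chromosome 1, 153543613 to 153550136), which binds non-muscle myosin IIA and is known for its role in cell motility and metastasis, was at 15.1, 13.9 and 16.3 TPM in resistant and 25.7, 29.2 and 30.0 TPM in control libraries. Every resistant library was lower than every control library. The log2 change was -0.86 ± 0.08 (limma adjusted p = 0.000142). S100A4 is often used as a fibroblast marker, and 9 other fibroblast markers were all under 1 TPM in all 6 libraries, with DCN and LUM at 0 in all 6 and sums of 0.255 to 0.435 TPM in resistant and 0.142 to 0.295 TPM in control libraries.

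S100P (ENSG00000163993, chromosome 4, 6693069 to 6697170), which binds ezrin and is high in several adenocarcinomas, was at 401, 441 and 413 TPM in resistant and 501, 563 and 507 TPM in control libraries. The groups did not overlap. S100P had a log2 change of -0.32 ± 0.06 (limma adjusted p = 0.00306).

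S100A6 (ENSG00000197956, chromosome 1, 153534599 to 153536244), or calcyclin, which binds the calcyclin-binding protein CACYBP, was at 1542, 1615 and 1559 TPM in resistant and 1784, 2017 and 1802 TPM in control libraries. Control library 2 was the highest, and all resistant libraries lay below all control libraries. Its difference on the log2 scale was -0.25 ± 0.05 (limma adjusted p = 0.00687). An antisense gene, BX470102.1, shares 23 exon bases with S100A6, and it averaged 2.88 TPM in resistant and 3.62 TPM in control libraries.

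These changes altered the order of the members by TPM, which also rests on the gene lengths used. In resistant cells the order was S100A9, S100A11, S100A6, S100A14, S100A10, S100A16, S100P, S100A8, S100A4 and S100A2, and only the neighbours S100A14 and S100A10 had libraries that overlapped. In control cells it was S100A9, S100A6, S100A11, S100A10, S100A14, S100P, S100A16, S100A4, S100A8 and S100A2, where S100A9 overlapped with S100A6 and S100P with S100A16. S100A8 thus stood above S100A4 in every resistant library and below it in every control library. The coefficient of variation over libraries was lowest for S100A14 in resistant (1.61%) and for S100A10 in control libraries (2.89%), and S100A8 had the highest in both groups.

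Members that rose lay on both sides of members that fell on chromosome 1. From S100A9, which lies 32.2 kb from S100A8 with S100A12 between them, the next members on the chromosome are S100A6 (177 kb from S100A9) and S100A4 (186 kb), which fell. S100A2 (203 kb), S100A16 (249 kb) and S100A14 (256 kb), which rose, follow. S100A10 and S100A11 lie far to the other side. Distances are between the lower gene coordinates of GENCODE 29.

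Other S100 genes of the same stretch also went both ways. Of 10 other S100 genes, 5 passed the filter on low values. Beside 24.0% higher and 24.7% lower of all genes tested, 1 of these 5 was higher (20%) and 2 were lower (40%). S100A13, the most abundant of them, was at 26.7 ± 2.99 TPM in resistant and 39.2 ± 4.79 TPM in control libraries (log2 change -0.54 ± 0.11, limma adjusted p = 0.00487). Part of its exons (235 bases) overlaps S100A1 on the other strand, and whether the authors counted by strand is not given in the sources used here. A larger part (536 bases) overlaps AL162258.1 on the same strand, for which no level is given. S100A3 and S100A5 were chosen after their values were seen, since they lie beside S100A4. S100A3 was at 5.12, 4.61 and 5.19 TPM in resistant and 1.84, 1.98 and 1.89 TPM in control libraries, and it rose (log2 1.04, limma adjusted p = 0.000141). S100A5 was at 1.76, 2.53 and 2.63 TPM in resistant and 3.65, 5.12 and 3.77 TPM in control libraries, and it fell (log2 -0.65, limma adjusted p = 0.0125). S100A3 and S100A4 thus went in different directions, and they lie on the same strand with gene spans that overlap but share no exon bases. All 3 of S100A3, S100A5 and S100A12 rested on at most 48 reads in a library. Without resistant library 2, 2 of the other S100 genes were called higher. S100A12, a myeloid member, was at 5.80 ± 2.19 TPM in resistant and 4.07 ± 0.756 TPM in control libraries and did not pass the test (limma adjusted p = 0.229). S100B and S100Z were at 0 in all 6 libraries.

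**Figure D4:**
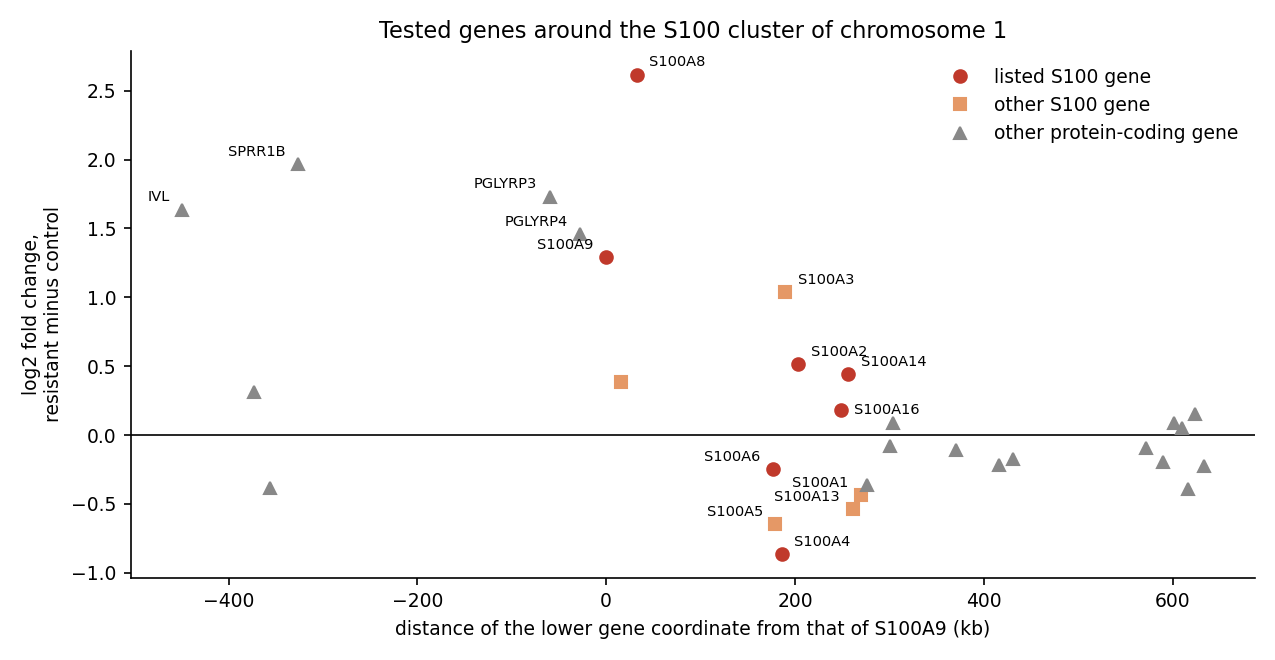
Log2 fold change (resistant minus control) of tested protein-coding genes around S100A9 against the distance in kb between lower gene coordinates; red circles are listed S100 genes, orange squares other S100 genes and grey triangles other genes. S100A8, S100A9 and the neighbours PGLYRP3, PGLYRP4, IVL, SPRR1B and S100A3 lie above 1, while S100A6, S100A5 and S100A4, which lie close together next to S100A3, are below 0.

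Within 500 kb of the chromosome 1 members, 34 of 62 other protein-coding genes were tested. Of these, 9 were higher (26.5%) and 8 lower (23.5%), with a median log2 change of 0.04, close to the 24.0% and 24.7% of all genes tested. The count of lower neighbours was 4 when resistant library 1 or 3 or control library 2 or 3 was left out. Over the 1297 tested protein-coding genes of chromosome 1 the median was -0.06, with 26.9% higher and 35.7% lower. The neighbours' share of lower genes (23.5%) was below that of their chromosome (35.7%), given as a description with no test. Near S100P, 3 of 13 tested neighbours were higher and 3 lower (median 0.06). The neighbours that rose at least 2-fold were S100A3 and 4 genes on the S100A9 side, named after their values were seen. PGLYRP3 and PGLYRP4, which encode peptidoglycan recognition proteins, lie before S100A9. PGLYRP3 was at 2.18, 2.16 and 2.64 TPM in resistant libraries and was listed at 0 in all 3 control libraries. PGLYRP4 was at 1.45, 1.79 and 2.18 TPM in resistant and at 0, 0.0519 and 0 TPM in control libraries. Both were called higher by limma but rested on few reads, at most 48 in a library.

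The cornified envelope genes of the same complex, which build the surface of stratified epithelium, were mostly below the filter on low values. Of 17 found, only 4 were tested, 2 rose and none fell (median log2 0.97). That is 50% higher and 0% lower, against 24.0% and 24.7% of all genes tested, and it rests on 4 genes. SPRR1B, an envelope precursor, was at 7.72, 7.82 and 10.2 TPM in resistant and 1.24, 1.52 and 1.54 TPM in control libraries, on 7 to 61 reads. IVL, or involucrin, was at 3.46, 3.33 and 2.20 TPM in resistant and 0.102, 0.219 and 0.531 TPM in control libraries. SPRR1A and SPRR3 did not pass the test, with log2 changes of 0.31 and -0.39. Among 7 genes of the fused type, in which an S100 domain heads a long repeat, TCHH (trichohyalin) was the only one tested. It was at 1.14, 1.84 and 1.53 TPM in resistant and 0.542, 0.599 and 0.497 TPM in control libraries, a ratio of mean TPM of 2.75. On the log2(TPM + 1) scale, which understates a change at this level, TCHH rose by 0.68 (limma adjusted p = 0.0126). The limma call of TCHH was lost without resistant library 2 (adjusted p = 0.0506).

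Annexins, the calcium-dependent membrane-binding proteins that several S100 dimers hold, changed in both directions. Of 11 tested annexins, 6 rose, 4 fell and 1 did not pass (median log2 0.42). The shares called were 54.5% higher and 36.4% lower, against 24.0% and 24.7% of all genes tested. ANXA1, the partner of S100A11, was at 298, 248 and 258 TPM in resistant and 105, 131 and 121 TPM in control libraries (log2 1.17 ± 0.10, limma adjusted p = 8.23e-05). ANXA3 was at 16.4 ± 0.334 TPM in resistant and 4.61 ± 0.825 TPM in control libraries (log2 1.64), and ANXA10 rose as well (log2 0.89). ANXA11, which binds S100A6, fell to 82.8 ± 3.67 TPM in resistant libraries, against 154 ± 3.53 TPM in control libraries (log2 -0.89 ± 0.05, limma adjusted p = 1.06e-05).

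ANXA2, the partner of S100A10, was at 347, 363 and 340 TPM in resistant and 223, 238 and 233 TPM in control libraries, while S100A10 did not pass the test. The ratio of S100A10 to ANXA2 TPM was accordingly 2.21, 2.27 and 2.50 in resistant and 3.69, 3.55 and 3.42 in control libraries, as a description with no test. The groups did not overlap. The ANXA2 level is uncertain because its near-identical pseudogene ANXA2P2 was listed at 139, 147 and 141 TPM in resistant and 91.1, 94.5 and 100.2 TPM in control libraries, and how the counting shared reads between them is not known.

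Binding partners of the members went both ways. Of 15 tested, 8 rose, 3 fell and 4 did not pass (median log2 0.13). That is 53.3% higher and 20% lower, against 24.0% and 24.7% of all genes tested. TRPV6, a calcium channel that the S100A10 and annexin A2 complex carries to the membrane, fell to 4.78 ± 0.120 TPM in resistant libraries, against 11.4 ± 0.231 TPM in control libraries (log2 -1.10, limma adjusted p = 2.18e-05). STIP1 and SUGT1, cochaperones that bind S100 proteins, changed by 0.35 and -0.37 on the log2 scale, and both were called. MYH9, the myosin that S100A4 binds, EZR and CACYBP were named after their values were seen, as partners of S100A4, S100P and S100A6. Their log2 changes were 0.31, 0.18 and -0.21, and all 3 were called by limma.

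**Figure D5:**
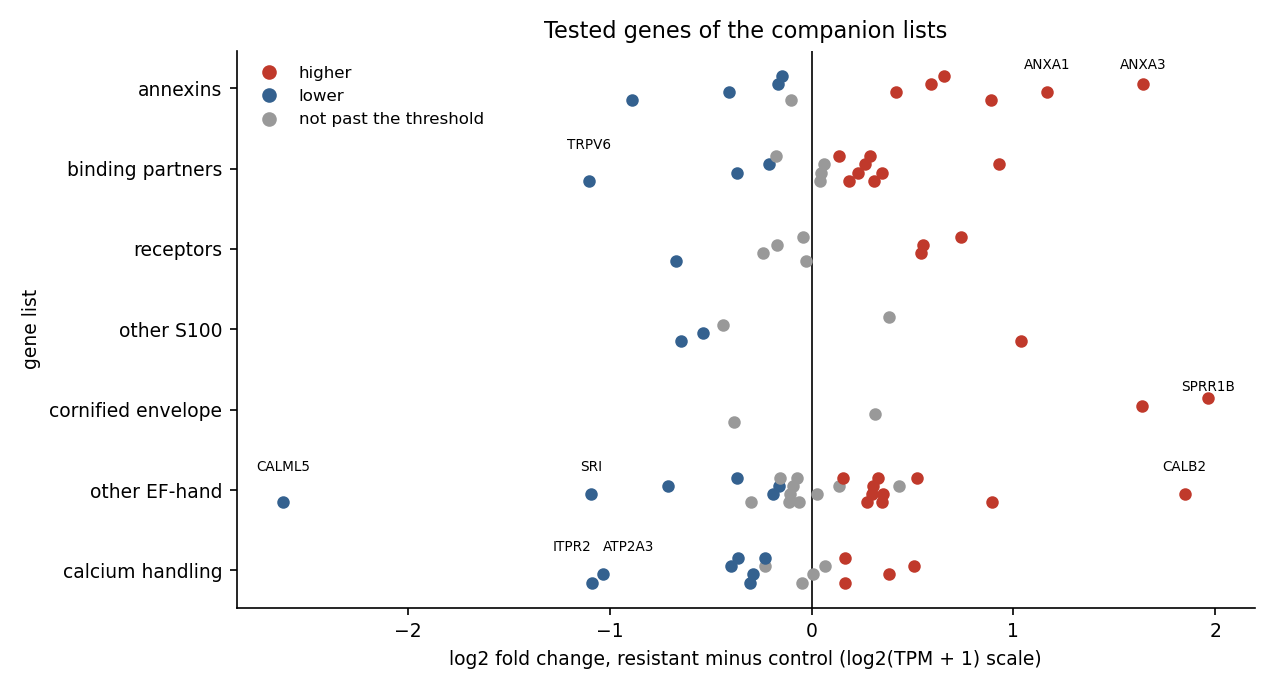
Log2 fold change (resistant minus control) of the tested genes of 7 lists, 1 row per list and 1 point per gene, red for higher, blue for lower and grey for not past the threshold. Each list holds genes on both sides of 0, from CALML5 (-2.62) to SPRR1B (1.97).

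Receptors that secreted S100 proteins act on were present at low to high levels. Of 8 tested, 3 rose, 1 fell and 4 did not pass (median log2 -0.03). That is 37.5% higher and 12.5% lower, against 24.0% and 24.7% of all genes tested. The number that fell was 2 without resistant library 2 and without control library 1. AGER, which encodes RAGE, was at 6.20, 6.42 and 7.20 TPM in resistant and 9.27, 12.8 and 11.5 TPM in control libraries, and it fell (log2 -0.67 ± 0.12, limma adjusted p = 0.00266). SDC4, a heparan sulfate carrier, was at 490.4 ± 8.28 TPM in resistant and 293 ± 8.78 TPM in control libraries (log2 0.74), and ALCAM, an adhesion molecule, rose by 0.54 on the log2 scale. TLR4, named after its values were seen as the receptor of calprotectin, was at 2.23, 2.54 and 2.12 TPM in resistant and 1.11, 1.37 and 1.25 TPM in control libraries, and it rose (log2 0.55, limma adjusted p = 0.00972).

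EF-hand genes outside the S100 family went both ways, with 10 of 26 tested higher and 6 lower (median log2 -0.02). Their shares were 38.5% higher and 23.1% lower, against 24.0% and 24.7% of all genes tested. CALB2, or calretinin, was at 369.8 ± 16.2 TPM in resistant and 102 ± 4.31 TPM in control libraries (log2 1.85, limma adjusted p = 8.28e-07). CAPS, or calcyphosin, rose by 0.89 on the log2 scale. CALML5, a calmodulin-like protein of skin, fell to 3.44 ± 1.47 TPM in resistant libraries, against 25.1 ± 0.643 TPM in control libraries (log2 -2.62). SRI, or sorcin, fell by 1.09 on the log2 scale. Of 15 calcium handling genes, 4 were higher (26.7%) and 7 lower (46.7%), with a median log2 change of -0.23. ITPR2, a calcium release channel, and ATP2A3, a pump of the endoplasmic reticulum, changed by -1.09 and -1.04, STIM2, a store sensor, by -0.40, and the plasma membrane pump ATP2B4 by 0.51, all called by limma.

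Genes with the pattern most like the members at either end were sought by the Euclidean distance between log2(TPM + 1) values centred on their mean over the 6 libraries. For S100A8 the nearest were CLDN8, a claudin of tight junctions (distance 0.174), APCDD1L (0.231) and SIRPB2 (0.302). Their likeness holds on the log2(TPM + 1) scale, which shrinks the change of genes with low control levels. As a ratio of mean TPM, resistant to control, they rose more, by 9.07 (CLDN8), 19.3 (APCDD1L) and 11.4 (SIRPB2), against 6.35 for S100A8. CLDN8 was at 15.8, 12.6 and 12.3 TPM in resistant and 1.22, 1.65 and 1.61 TPM in control libraries. For S100A4 the nearest were TCEANC2 (0.0928), IPP (0.0964) and RP4-773N10.4 (0.105), all on chromosome 1. They lie far from S100A4 (153543613), with lower coordinates of 54053584, 45694324 and 110058340. IPP was at 13.3, 11.8 and 14.1 TPM in resistant and 22.1, 25.5 and 24.2 TPM in control libraries.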

How the data were processed

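Polyadenylated RNA from H3122 cells was sequenced from stranded libraries, per the labels' protocols, in 3 resistant and 3 control libraries. The authors deposited 1 table of TPM values (reads per gene length, scaled to the same total in each library). HISAT2 is named in the submitters' processing notes, and no counter, build, annotation or strand setting is stated. All 51537 gene IDs were found in GENCODE 29, which gave positions and exon lengths. Of values above 0, 67.2% to 67.9% gave whole reads within 0.01 read, so rebuilt reads describe depth and serve an alternative only.

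A gene was tested where 3 or more libraries reached 1 TPM. The test was limma 3.58.1 (R 4.3.3, trend and robust options) on log2(TPM + 1), with Benjamini-Hochberg adjustment over all 16077 genes and a threshold of 0.05. Log2 changes are on this scale unless stated, and it understates the change of every gene at a few TPM. On simulated data with 200 changed genes, 82% of log2 changes of 1 and 51% of 0.5 were recovered. Of the calls in that simulation, 6.34% were genes left unchanged. Far fewer genes changed there than the 48.6% called here, so these shares do not give the recovery in this comparison. The members and lists were chosen with earlier results of these data known. Named list genes were up to 4 called genes per list whose higher group averaged 5 TPM or more, in order of the size of change, or the most abundant gene where fewer than 2 were called. Genes named outside this rule were chosen after their values were seen. Single values of some list genes are not reported here. Replicate pairs differed by more than sampling noise. Alternatives changed the pseudocount, filter, scaling, options, block and libraries used; limma-voom on rebuilt reads and the neighbour counts were added after seeing the data.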

Additional observations from a re-analysis of the deposited data

How the results depend on the processing

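Under the alternatives, the 9 called members kept their direction, and 8 of them their call. The exception was S100A16, at 0.18 without the trend and robust options and not past the threshold without resistant library 2 or 3 (leave-one-out range 0.14 to 0.21). S100A10, never called, lay between -0.0458 and 0.0300 with 1 library left out, and its sign turned positive without resistant library 1 (0.0300), without control library 2 (0.00739) and with limma-voom on rebuilt reads (0.0258). No result reversed among those called. With a filter at 5 TPM, which leaves fewer genes, 0 other S100 genes were higher and 1 lower, 0 fused type genes were higher, 1 cornified envelope gene was higher, 2 receptors were lower and 3 chromosome 1 neighbours were higher (9 in the report). Receptors called lower were also 2 with median-ratio scaling and 2 without the trend and robust options, and 3 with limma-voom on rebuilt reads; the cause was not tested. Leaving out 1 library gave 1 to 2 other S100 genes higher, 0 to 1 fused type genes higher and 1 to 2 receptors lower. With the replicate block, 6 members were higher and 3 lower, as were 3433 and 3423 of all genes. Same-numbered libraries did not deviate together (r of -0.06, -0.00 and -0.02). That cannot show whether they shared a culture, preparation or run. The block took the lower chromosome 1 neighbours to 5 (8 in the report), and limma-voom took the higher neighbours of S100P to 5 (3 in the report). Low reads limit S100A2, S100A3, S100A5 and the envelope genes.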
